A study of Ovis aries with 3 samples.

Results

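BCL2L15, MGP and MCUR1 are 3 of the 25197 annotated sheep genes whose RNA was measured in extracellular vesicles (small sacs of membrane shed by cells) of day 14 conceptuses. They were picked by name, because earlier work on the same values had shown them to be plentiful in libraries 2 and 1 and low in library 3. Their values in the 3 libraries are therefore a description, and no test is given for them. The study held 3 libraries in 1 group with no control: each came from medium in which intact sheep conceptuses (the embryo with its membranes) had spent 24 h, and carried as its title the number 4141 (library 3), 4096 (library 2) or 4020 (library 1). The medium contained 10% fetal bovine serum depleted of exosomes, and vesicles were precipitated after a 0.2 µm filtration, so RNA from any cell of the conceptus or left over from the serum could be present. The labels name no animal behind a library, so some of the spread over libraries may come from the procedure and not from the animals. The deposited unit is not named and was taken as RPKM-type, that is, reads per gene length and library depth.

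The 3 proteins belong to unrelated systems. BCL2L15 is a member of the BCL2 family, the proteins that set whether the outer mitochondrial membrane is breached during apoptosis, and in mice its transcript has been found mainly in the gut. MGP, matrix Gla protein, is a small secreted protein that depends on vitamin K for the carboxylation of its glutamate residues, keeps soft tissue from calcifying and binds bone morphogenetic proteins. MCUR1 sits in the inner mitochondrial membrane and, in human and mouse cells, takes part in the assembly of the calcium uniporter, the channel that lets calcium into the matrix.

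All 3 transcripts were abundant in 2 of the libraries. BCL2L15 stood at 3.5 RPKM-type units in library 3, at 84.5 in library 2 and at 29.9 in library 1, with a mean of 39.3 ± 41.3 (SD, n = 3). MGP stood at 2.3 in library 3, at 59.6 in library 2 and at 29.5 in library 1, with a mean of 30.5 ± 28.7 (SD, n = 3). MCUR1 stood at 1.5 in library 3, at 37.2 in library 2 and at 17.3 in library 1, with a mean of 18.7 ± 17.9 (SD, n = 3). In each case library 3 was the lowest and library 2 the highest, and each SD was close to the mean it belongs to. By mean value the 3 genes held places 78, 96 and 146 among all 25197 rows.

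**Figure D1:**
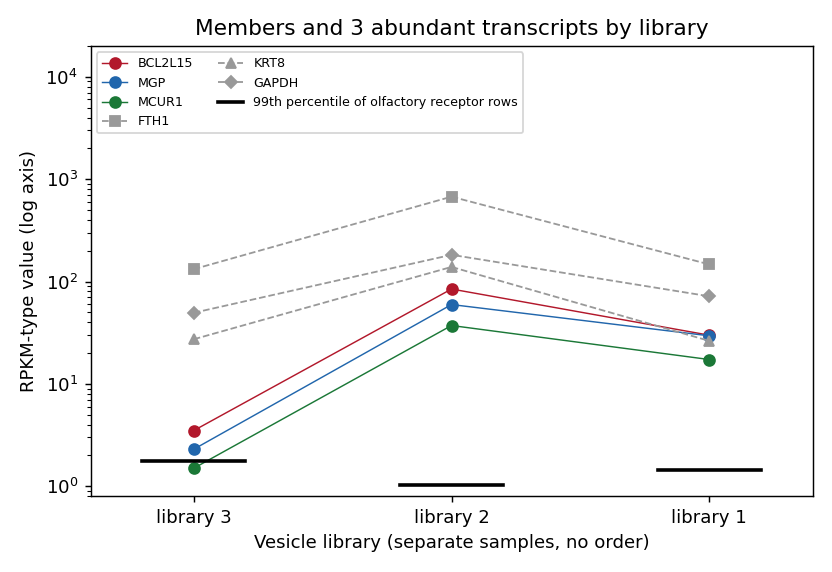
RPKM-type values (vertical log axis) of BCL2L15, MGP and MCUR1 (coloured points) and of FTH1, KRT8 and GAPDH (grey points) in libraries 3, 2 and 1; thin lines join the points of 1 gene and black bars mark the 99th percentile of olfactory receptor rows. The coloured points lie between 17.3 and 84.5 in libraries 2 and 1 and between 1.5 and 3.5 in library 3, where MCUR1 is below the black bar.

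In library 3 the transcripts were low, and for MCUR1 presence above background could not be shown. The 476 olfactory receptor rows, genes used here as a measure of background, had a 99th percentile of 1.75 in library 3, 1.02 in library 2 and 1.45 in library 1. BCL2L15 in library 3 was 2.00 times that percentile, with 0 of the 476 receptor rows as high. MGP was 1.31 times that percentile, and 3 receptor rows were as high or higher. MCUR1 was 0.857 times that percentile, and 10 receptor rows were as high or higher, so its value in library 3 could not be set apart from background. The members had been picked as near background in library 3, which held for MCUR1 and less well for MGP and BCL2L15. By value in library 3 the genes held places 394, 706 and 1198 of all rows, against places 70, 94 and 144 in library 2 and 73, 76 and 122 in library 1 (in the order BCL2L15, MGP, MCUR1).

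The reads behind these values could be estimated per length, though not in total, because the lengths of the genes were not used here. In copies of the U6 small nuclear RNA, which are nearly equal in length, 1 read was worth about 0.449 units in library 3, 0.542 in library 2 and 0.422 in library 1. Per stretch as long as U6, MCUR1 then had about 3.34 reads in library 3, against 68.6 in library 2 and 41.0 in library 1. MGP had about 5.12 such reads in library 3, against 110.0 and 69.9 in libraries 2 and 1, and BCL2L15 7.80 against 155.9 and 70.9. Counting error is therefore largest for the values in library 3.

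Library 3 gave lower values for most abundant genes, and the shortfall of the 3 transcripts was larger than that of the median row. Summed values were 9531.8 in library 3, 40060.3 in library 2 and 17480.7 in library 1. Of the 236 rows with a mean of 10 or more, 202 were lower in library 3 than in both other libraries and 233 were highest in library 2. BCL2L15 was 24.1-fold lower in library 3 than in library 2 and 8.54-fold lower than in library 1. For MGP these folds were 25.9 and 12.8, and for MCUR1 24.8 and 11.5. In the median row of the 236, the value in library 3 was 0.136 times that in library 2 and 0.372 times that in library 1, while the members' ratios ran from 0.0386 to 0.0414 against library 2 and from 0.0780 to 0.117 against library 1.

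On the log2(value + 1) scale, which understates the change of low values, the difference of library 3 from the mean of libraries 2 and 1 was -3.51 for BCL2L15, -3.70 for MGP and -3.40 for MCUR1. The median of the 236 rows was -1.97, with quartiles at -2.69 and -1.40 and a range between -4.96 and 1.92. Measured from that median, BCL2L15 was at -1.55, MGP at -1.74 and MCUR1 at -1.44. Ordered from the lowest difference, MGP held place 9, BCL2L15 place 15 and MCUR1 place 19 of 236. Other rows were lower still, so the 3 genes were near the low end of a continuous spread and did not form its extreme. The difference of MGP was -2.51 when libraries were scaled to the same summed value and -2.92 when scaled by the median ratio of the rows at 1 or more in all 3 libraries. That of BCL2L15 was -2.24 and -2.69, and that of MCUR1 -2.31 and -2.68, while the median row moved to -0.62 and -1.10 under the same scalings.

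**Figure D2:**
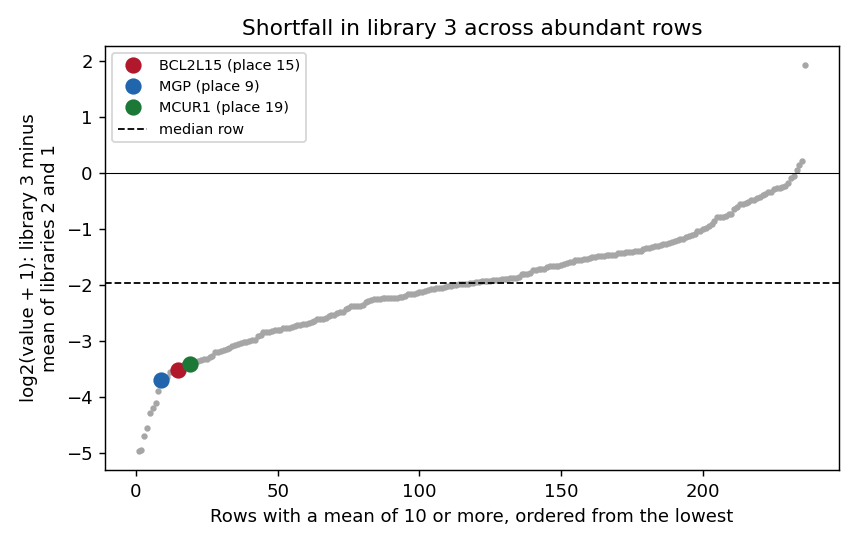
Difference of log2(value + 1) in library 3 from the mean of libraries 2 and 1 (vertical axis) for the 236 rows with a mean of 10 or more, ordered from the lowest (horizontal axis). MGP, BCL2L15 and MCUR1 (coloured) hold places 9, 15 and 19, at -3.70, -3.51 and -3.40, and the dashed line is the median row at -1.97.

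A row was called low in library 3 when its value there was at least 10 times below that in each of the other libraries. By that rule 17 of the 236 rows (7.20%) were called, and 2 of the 3 members, MGP and MCUR1, were among them. The members were chosen on these same values, so nothing is read from that share. BCL2L15 was outside because of library 1, with a larger ratio of 0.117. Just inside the threshold were ENSOARG00000010819, described as ribosomal protein L30, at 0.0892, and ENSOARG00000010977, an uncharacterized protein, at 0.0909. Just outside were ENSOARG00000005549, described as a ribosomal protein of the small subunit, at 0.109, and the translation initiation factor subunit EIF3G at 0.113. With 1 library on each side the folds have no replicate check. Without replicate 1 the count was 80, and under the scalings to the summed value and to the median ratio it was 8 and 9, with 0 of the 3 members called under either. Under the median ratio MGP was 9.12-fold lower in library 3 than in library 2 and 9.998-fold lower than in library 1.

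Ratios to other transcripts of the same library do not depend on how libraries are scaled. Set against GAPDH, a glycolytic enzyme at 49.5, 182.4 and 71.7 in libraries 3, 2 and 1, BCL2L15 amounted to 7.07% in library 3, 46.3% in library 2 and 41.7% in library 1. MGP amounted to 4.65% of GAPDH in library 3, 32.7% in library 2 and 41.1% in library 1. MCUR1 amounted to 3.03% in library 3, 20.4% in library 2 and 24.1% in library 1. Against the ferritin heavy chain FTH1, MGP amounted to 1.74% in library 3, 8.84% in library 2 and 20.1% in library 1. Against the epithelial keratin KRT8, MGP gave 8.42% in library 3, 42.9% in library 2 and 112.2% in library 1. All 3 members were thus lowest in library 3 relative to each of these transcripts, whose own differences of library 3 from the others, at -1.25 for FTH1, -1.13 for KRT8 and -1.19 for GAPDH, were smaller than that of the median row.

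Between libraries 2 and 1, BCL2L15 was near the median row, while MGP and MCUR1 were below the lower quartile. The difference of library 2 from library 1 on the log2(value + 1) scale was 1.468 for BCL2L15, 0.991 for MGP and 1.062 for MCUR1, against a median of 1.362 and quartiles of 1.064 and 1.715 over the 236 rows, of which 234 were higher in library 2. For MGP and MCUR1 the direction turned under scaling, to -0.18 and -0.088 at equal summed values and to -0.13 and -0.040 by the median ratio. BCL2L15 remained higher in library 2 under both scalings, by 0.30 and 0.34. Ordered from the highest, the 3 genes held places 98, 192 and 180. The SD of log2(value + 1) over the 3 libraries was 2.16 for BCL2L15, 2.19 for MGP and 2.04 for MCUR1, at places 21, 17 and 27 of 236, and the median row had 1.37.

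Relative to each other, MGP and MCUR1 changed least between libraries. The value of MGP was 1.53 times that of MCUR1 in library 3, 1.60 times in library 2 and 1.71 times in library 1. BCL2L15 was 1.52, 1.42 and 1.01 times as high as MGP in libraries 3, 2 and 1, and 2.33, 2.27 and 1.73 times as high as MCUR1. Library 1 was the one in which BCL2L15 was low relative to the others. The counting error of the low values in library 3 was not resolved for these ratios. The members were also picked for a shared pattern over these libraries, so their likeness was in part set by that choice.

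Among the 143 abundant rows with a symbol, those most like the members over the 3 libraries were RPS19, RPL7A, RPS3, EIF1 and the members themselves when 1 was added to each value. Likeness was measured as the Euclidean distance between profiles of log2(value + 1) centred on their own mean, over 3 libraries. RPS19, a protein of the small ribosomal subunit at 8.7, 148.9 and 70.7 in libraries 3, 2 and 1, was the nearest to MCUR1 (distance 0.0125) and to MGP (0.239) and the next nearest to BCL2L15 (0.296). The ribosomal proteins RPL7A (0.167) and RPS3 (0.210) came next for MCUR1. MCUR1 (0.251) and RPL7A (0.310) came next for MGP, and for BCL2L15 the start-codon selection factor EIF1 (0.288) was the nearest and MCUR1 (0.301) was next after RPS19. The median distance of the other rows from a member lay between 1.26 and 1.5. The value of MCUR1 in library 3 could not be set apart from background, and counting error was not resolved for this order.

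This order depended on the added constant. RPS19 itself was 17.1-fold lower in library 3 than in library 2 and 8.13-fold lower than in library 1, smaller folds than those of MCUR1. With 0.1 added instead of 1, an alternative chosen after the data were seen, MGP and MCUR1 were each other's nearest row, at a distance of 0.128. EIF3G was then the nearest row to BCL2L15 (0.146) and the next nearest to MGP (0.421) and MCUR1 (0.293). The tetraspanin CD9, at 1.1, 27.7 and 8.6 in libraries 3, 2 and 1, was the next nearest to BCL2L15 (0.156). The members were chosen on these same values, so nothing is read from their likeness to each other.

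**Figure D3:**
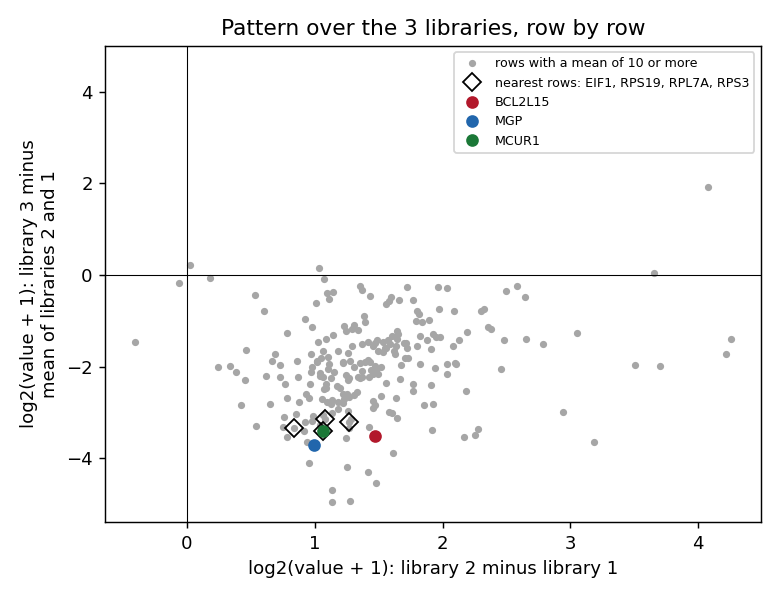
Each point is 1 of the 236 rows with a mean of 10 or more, placed by the log2(value + 1) difference of library 2 from library 1 (horizontal) and of library 3 from the mean of the others (vertical); diamonds mark the rows with a symbol nearest to the members. The members (coloured) lie between 0.99 and 1.47 on the horizontal axis, where the median row is at 1.36, and between -3.70 and -3.40 on the vertical axis, in its lower part.

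BCL2L15 stood far above the other genes of its family in libraries 2 and 1. In library 3 it stood at 3.5, against 1.3 for BCL2L12, the highest of the others there. All 3 members were picked as abundant, so their places in their lists were in part set by that choice. Of 27 symbols searched for the BCL2 family, 22 had a row. The list also holds genes that are named for BCL2 without being members of the family. Among these, BCLAF1 stood at 0.4, 1.1 and 0.6 and BNIP1 at 0.1, 1.1 and 0 in libraries 3, 2 and 1, and both are counted below. Among the 21 besides BCL2L15, 1 reached a value of 1 in library 3, 4 in library 2 and 2 in library 1, where the shares of all rows were 7.88%, 13.6% and 9.37%. Their median value was 0.1, 0.7 and 0.3 in libraries 3, 2 and 1, against 0.1 in each library over all rows. The leading relatives were MCL1, which restrains apoptosis, at 0.8, 4.1 and 1.1, BID, a family member that promotes it, at 0.1, 2.9 and 1.5, and BCL2L12 at 1.3, 0.7 and 0.9. BCL2L15 made up 46.1%, 83.5% and 78.1% of the summed value of the list in libraries 3, 2 and 1.

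The genes listed with MGP were far below it in libraries 2 and 1. Of 31 symbols for Gla proteins, the enzymes of the vitamin K cycle and regulators of mineralization, 28 had a row. Besides MGP, 1 of 27 reached a value of 1 in library 3, 2 in library 2 and 1 in library 1 (3.70%, 7.41% and 3.70%, against 7.88%, 13.6% and 9.37% of all rows), and 6 were listed at 0 in all 3. The median of the 27 was 0 in library 3, 0.2 in library 2 and 0.1 in library 1. The highest were the membrane Gla protein PRRG4, at 0, 1.7 and 1.1 in libraries 3, 2 and 1, the serum calcification inhibitor AHSG, at 1.8, 0.4 and 0, and the alkaline phosphatase ALPL, at 0.1, 1.1 and 0.5. AHSG was the only one of these named genes with its highest value in library 3. GGCX, the carboxylase that modifies Gla proteins, was at 0.1, 0.2 and 0.2 and was picked out once its values were known.

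MCUR1 and VDAC2 were the most abundant of the genes searched for mitochondrial calcium transport, with means of 18.7 ± 17.9 and 17.8 ± 10.7 (SD, n = 3). Of 30 symbols, which include older names of the same genes, 22 had a row. The list is broad and also holds genes not known as calcium channels or carriers. Among these, PHB2, LETMD1 and AFG3L2 stood at 2.1, 1.4 and 1.2 in library 1 and are counted below. Besides MCUR1, 4 of 21 reached a value of 1 in library 3 and 6 in each of libraries 2 and 1 (19.0%, 28.6% and 28.6%, against 7.88%, 13.6% and 9.37% of all rows), and 2 did so in all 3. VDAC2, a channel of the outer mitochondrial membrane, stood at 12.8, 30.0 and 10.5 in libraries 3, 2 and 1 and so was higher in library 3 than in library 1. SMDT1, the small essential subunit of the uniporter, stood at 1.6, 5.9 and 2.5, and VDAC1 at 0.9, 4.5 and 0.7. The pore subunit MCU, picked out once its values were known, was at 0.1, 1.5 and 0.3. MCUR1 accounted for 6.38% of the summed value of the list in library 3, 42.2% in library 2 and 43.5% in library 1.

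**Figure D4:**
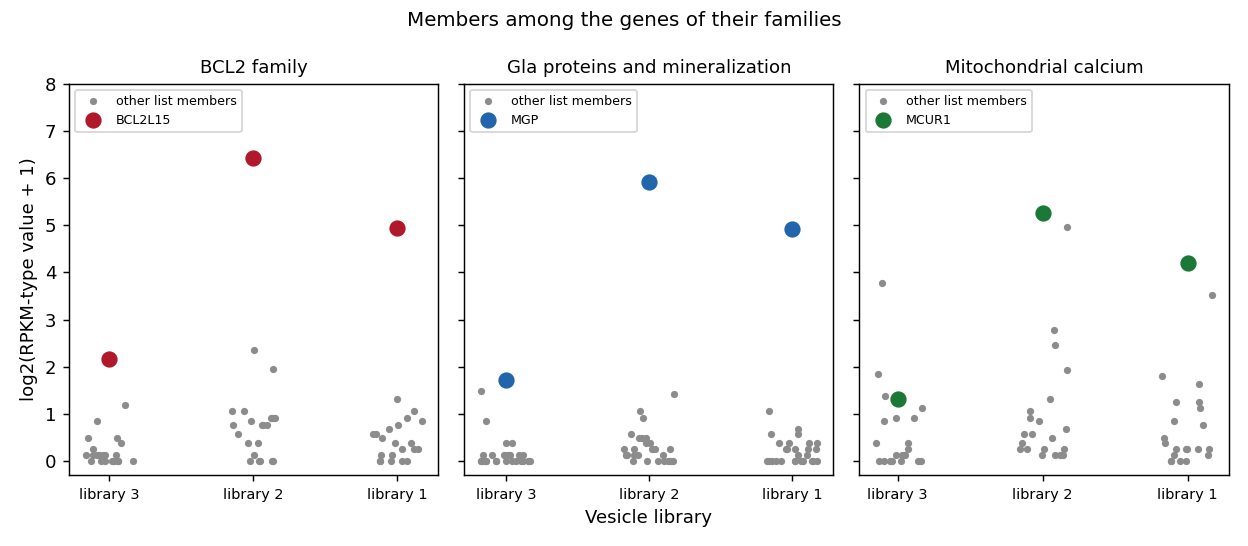
log2(RPKM-type value + 1) of each list member (grey points, spread sideways for legibility) and of BCL2L15, MGP or MCUR1 (coloured) in libraries 3, 2 and 1. BCL2L15 and MGP are above all their list members in each library, and MCUR1 is above its list in libraries 2 and 1 and below VDAC2 and others in library 3.

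The genes next to the members on the chromosome had far lower values than the members in libraries 2 and 1. The sheep RefSeq table, of the assembly ARS-UI_Ramb_v3.0 and not of the build used by the authors, served for the order of genes alone. It places BCL2L15 on chromosome 1, MGP on chromosome 3 and MCUR1 on chromosome 20. Of the 12 neighbours, the nearest 2 with a row on each side of a member, 2 reached a value of 1 in library 3, 3 in library 2 and 2 in library 1 (16.7%, 25% and 16.7%, against 7.88%, 13.6% and 9.37% of all rows), and the highest value was 5.2. Beside MGP, ARHGDIB stood at 2.7, 5.2 and 1.5 in libraries 3, 2 and 1, and ERP27, ART4 and SMCO3 lay between 0 and 0.4. Beside BCL2L15, RSBN1 stood at 2.2, 3.3 and 1.4, and PTPN22, AP4B1 and DCLRE1B between 0.1 and 0.9. Beside MCUR1, NOL7 stood at 0.3, 1.1 and 0.2, and RNF182, CD83 and RANBP9 between 0 and 0.7. RefSeq lists 1 pseudogene that overlaps BCL2L15. The sources used here do not state whether reads were counted by strand, so reads of overlapping genes cannot be told apart. No member name occurred again with a numbered suffix in the deposited table.

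Markers of tissues differed between the libraries as well. Their sums are as deposited and not scaled for the summed value of the whole library, which was 9531.8, 40060.3 and 17480.7 in libraries 3, 2 and 1. Of 9 uterine epithelium markers with a row, 5 reached a value of 1 in library 3, 6 in library 2 and 4 in library 1 (55.6%, 66.7% and 44.4%, against 7.88%, 13.6% and 9.37% of all rows), and their summed value was 11.5 in library 3, 172.1 in library 2 and 60.8 in library 1. Among them the protease inhibitor CST6 stood at 1.1, 49.1 and 24.9, the galectin LGALS15 at 4.5, 74.2 and 18.8, and the ion transport regulator FXYD4 at 1.8, 30.2 and 10.4. Not all followed them: GRP stood at 1.3, 3.2 and 0.4, and STC1, at 0.5, 0.2 and 0.3, had its highest value in library 3. None of these 9 was listed at 0 in all libraries, and CST6 was lower in library 3 than MGP by the log2 difference, at -4.10. Of 10 trophectoderm markers, 4 reached a value of 1 in library 3, 4 in library 2 and 4 in library 1. These are 40% in each, against 7.88%, 13.6% and 9.37% of all rows, and 3 markers did so in all 3 libraries. The sum of the 10 was 38, 183 and 39.1 in libraries 3, 2 and 1 and was mostly KRT8. The interferon tau row TP-1 stood at 4.7, 26.2 and 6.7 and S100G at 1.6, 11.9 and 2.6. GATA3, at 3, 0.9 and 0.9, was highest in library 3, and GATA2 was listed at 0 in all 3.

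Markers of mesoderm and mesenchyme, tissues in which MGP is well known, had values of at most 4.5. Their shares at a value of 1 or more rest on at most 3 of 13 genes, so no difference from all rows is read from them. Of 13, 0 reached a value of 1 in library 3, 3 in library 2 and 2 in library 1 (0%, 23.1% and 15.4%, against 7.88%, 13.6% and 9.37% of all rows), with sums of 1.3, 9.7 and 5.5, and COL1A2, PDGFRB and POSTN were listed at 0 in all 3. VIM, an intermediate filament of mesenchyme, stood at 0.1, 4.5 and 3.4, TAGLN, an actin-binding protein of smooth muscle, at 0.1, 2.5 and 1.1, and HAND1 at 0.4, 1.2 and 0.1. Of 6 endothelial markers 0 reached a value of 1 in any library (0%, against the same shares of all rows). Their sums were 0.4, 0.4 and 0.8 in libraries 3, 2 and 1, led by VWF and CDH5, and EGFL7 was at 0 throughout. Of 12 markers of extraembryonic endoderm, 4 reached a value of 1 in library 3, 3 in library 2 and 3 in library 1 (33.3%, 25% and 25%, against 7.88%, 13.6% and 9.37% of all rows), with sums of 13, 32.2 and 10.3. APOA1 stood at 6.3, 10.3 and 6, DAB2 at 1.5, 14.6 and 1.1 and APOA2 at 2.9, 5.4 and 0.9. AFP, at 1.3, 0.1 and 0.1, was highest in library 3, and TF was at 0 throughout. Of 7 leukocyte markers, 1 reached a value of 1 in library 3, 3 in library 2 and 1 in library 1. These are 14.3%, 42.9% and 14.3%, against 7.88%, 13.6% and 9.37% of all rows. The sums were 4.9, 6 and 2.4, led by AIF1 at 4.1, 2.8 and 0.3. Of 5 erythroid markers 0 reached a value of 1 in any library (0%, against the same shares of all rows). Their sums were 0.8, 1.4 and 1, led by EPB42 at 0.5, 0.9 and 0.4. In bulk RNA, fewer vesicles from a cell type and less of a transcript per vesicle cannot be told apart, and the part of these tissues in the values of BCL2L15, MGP and MCUR1 was not tested.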

How the data were processed

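RNA of vesicles from 24 h conceptus cultures was made into full-length cDNA libraries from 5 ng of total RNA and sequenced as pairs of 50 bp, per the labels' protocols. The authors deposited 1 table of 25197 rows with 1 value per library and a mean. The authors had scaled the deposited RPKM values for gene length and library depth and rounded them to 1 decimal, as judged from the file itself, which states no unit; FPKM would have the same form. The submitters' processing notes name Oar_v3.1 as the build. Aligner and counter: not given in the sources used here.

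Columns were matched to libraries by title. Log2 values used a pseudocount of 1. Rows with a mean of 10 or more, computed from the 3 columns, numbered 236 (237 by the authors' rounded mean), and all 3 members passed. The value of 1 read was fitted to U6 rows at values up to 2. Of these, 94.2%, 95.5% and 95.0% in libraries 3, 2 and 1 lay within 0.1 of a whole multiple. The fit was made on these same rows and the tolerance is wide against the fitted value, so these shares are no independent check. No count model and no test was run. Members, gene lists and rules were chosen with earlier results of these data known. Named genes were the members, the 3 rows nearest each in pattern, the 3 highest of each list, the nearest 2 neighbours on each side, rows beside the 10-fold threshold, and FTH1, KRT8 and GAPDH. The calling code was tested on simulated data. Alternatives were pseudocounts, scalings, minimum means, rows with a symbol and leaving out replicates. Python 3.11.15, pandas 2.3.3 and numpy 2.4.6 were used.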

Additional observations from a re-analysis of the deposited data

How the results depend on the processing

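No paired analysis was possible because there is 1 group. Of the log2 differences of library 3, those that moved by more than the spread were -2.24 (BCL2L15), -2.51 (MGP) and -2.31 (MCUR1) at equal summed values and -2.92 (MGP) by the median ratio; none changed sign, and pseudocounts of 0.5 and 0.1 kept them within the spread. Leaving out replicate 1 or 2 gave -4.25 to -2.78 for BCL2L15, -4.20 to -3.21 for MGP and -3.93 to -2.87 for MCUR1. The difference of library 2 from library 1 reversed for MGP (-0.18 and -0.13) and MCUR1 (-0.088 and -0.040) at equal sums and by the median ratio, and for BCL2L15 it shrank to 0.30 and 0.34. Among rows with a symbol the places were 9 for BCL2L15 and 12 for MCUR1. The place of MGP was 8 to 16 with replicate 1 or 2 left out. The count of rows at least 10 times lower in library 3 was 17 of 236 (7.20%) as deposited. It was 8 of 236 at equal sums and 9 of 236 by the median ratio. Other settings admit other numbers of rows, so their counts cannot be compared directly. The count was 49 of 508 at a minimum mean of 5, 9 of 138 at 20 and 9 of 143 among rows with a symbol. With no minimum, where both other libraries were at 1 or more, it was 498, of a number of rows not given here. That setting also admits rows close to background, so no share is read from it. With replicate 2 or 1 left out it was 17 to 80. MCUR1 has no place at a minimum mean of 20, since its own mean is lower, and without replicate 3 the differences of library 3, the places and the count have no value. Scaling acts through its own construction. The count also depends by construction on which rows are admitted and on which libraries the rule compares. The cause of other moves was not tested. The values in library 3 rest on the fewest reads because they are low. By the fitted value of 1 read, library 2 was the shallowest.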

Other observations

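Rows at the other end of the order are named here after their values were seen. The row ENSOARG00000020896, an uncharacterized protein, stood at 72.1 in library 3, 78.2 in library 2 and 3.7 in library 1, and so had the highest log2 difference of library 3 from the others, 1.92. The membrane-binding annexin ANXA2_2 stood at 42.2, 54.8 and 26.3 in libraries 3, 2 and 1. Of the 236 abundant rows, 1 was highest in library 3, namely RPL23A_4 at 15.6, 13.4 and 13.2. Another copy of the same ribosomal protein, RPL23A_3, stood at 2.7, 94.9 and 30.3, next to MGP in the order, while RPL23A_1 stood at 29.0, 125.1 and 77.3. How reads were divided among such copies is uncertain.

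Among rows with a symbol, larger shortfalls than that of MGP were found for the interferon-induced IFI6 (0, 47.0 and 18.8 in libraries 3, 2 and 1), follistatin FST, which binds activin (0.1, 34.2 and 12.2), the membrane protein embigin EMB (0, 27.4 and 10.9), CST6 and RPL23A_3. IFI6 and EMB were listed at 0 in library 3, unlike the members.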
